A study of Mus musculus with 6 samples.

Results

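The genes described here act on Notch signalling from within the receiving cell or are switched on by it. They are the feedback gene Nrarp, the Deltex genes Dtx1, Dtx2, Dtx3 and Dtx4, the Fringe genes Lfng, Mfng and Rfng, and the Numb genes Numb and Numbl. Members were chosen by name, as the probe sets whose single symbol in the array's probe table is one of these 10, and all 10 genes were measured, through 17 of 34945 probe sets and among 18193 genes. Where a gene had several probe sets, the brightest by mean log2 value in the whole set of 6 arrays stands for it, and the others are given as well.

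RNA came from cells of the small intestine of Lgr5-EGFP-IRES-creERT2 mice, sorted for high GFP, and was hybridised to Affymetrix 3' arrays. The 3 DBZ mice had received DBZ, a gamma-secretase inhibitor, and the 3 vehicle mice DMSO, and cells of both groups were collected at 24 h. All 6 mice carried the Lgr5 reporter and recombinase allele, and the labels name no floxed gene, age or sex. Groups follow the sample titles, while the description field names DMSO for all 6, and the dose is not used because its labelled unit seems to lack a prefix. Values are the authors' intensities on a linear scale, array medians lay between 44.9 and 46.3, and precision is limited by the small number of arrays.

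A Notch receptor is cut by gamma-secretase after it binds a ligand, and the released intracellular part enters the nucleus and activates genes together with the DNA-binding protein RBPJ. Nrarp is one of the genes so activated, and its protein binds the intracellular part and promotes its loss. Deltex proteins are ubiquitin ligases, the first of which was found as a partner of Notch in Drosophila. Fringe enzymes add N-acetylglucosamine to O-linked fucose on the receptor in the Golgi and alter which ligands it responds to. Numb proteins are endocytic adaptors that oppose Notch in Drosophila and in mammalian cells. In the crypt, Notch signalling keeps stem cells from entering the secretory lineages.

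Start-site windows were read from RefSeq (GRCm38.p6), from 250 bases before to 50 after an annotated start, and 7 of the 10 genes had 1 or more, 9 windows in all. The windows of Nrarp, Dtx1 and Rfng are shown because these genes fell with DBZ, and that of Lfng because it holds the core letters bound by RBPJ while Lfng was not called. Capitals mark that core, TGGGAA on either strand. The windows lie at chr2:25180508-25180807 on the plus strand for Nrarp, chr5:120711620-120711919 on the minus strand for Dtx1, chr11:120784155-120784454 on the minus strand for Rfng and chr5:140607091-140607390 on the plus strand for Lfng.
Nrarp: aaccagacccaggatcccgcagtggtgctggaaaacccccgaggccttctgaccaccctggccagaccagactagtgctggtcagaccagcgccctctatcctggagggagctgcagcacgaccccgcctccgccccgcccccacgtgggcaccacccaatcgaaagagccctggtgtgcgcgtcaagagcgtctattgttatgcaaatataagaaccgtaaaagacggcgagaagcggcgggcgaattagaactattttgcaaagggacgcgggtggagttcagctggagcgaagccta
Dtx1: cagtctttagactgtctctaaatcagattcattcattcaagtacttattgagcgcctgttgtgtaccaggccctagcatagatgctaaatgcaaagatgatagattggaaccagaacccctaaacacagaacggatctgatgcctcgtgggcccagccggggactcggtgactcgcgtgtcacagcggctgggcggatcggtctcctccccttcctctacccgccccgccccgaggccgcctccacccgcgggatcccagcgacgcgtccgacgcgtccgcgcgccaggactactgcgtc
Rfng: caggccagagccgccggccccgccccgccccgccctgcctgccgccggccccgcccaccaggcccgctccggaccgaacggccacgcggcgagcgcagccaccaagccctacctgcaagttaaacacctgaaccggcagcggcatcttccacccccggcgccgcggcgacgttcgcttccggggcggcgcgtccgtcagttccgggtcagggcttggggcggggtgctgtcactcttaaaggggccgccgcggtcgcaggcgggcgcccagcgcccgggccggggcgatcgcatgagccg
Lfng: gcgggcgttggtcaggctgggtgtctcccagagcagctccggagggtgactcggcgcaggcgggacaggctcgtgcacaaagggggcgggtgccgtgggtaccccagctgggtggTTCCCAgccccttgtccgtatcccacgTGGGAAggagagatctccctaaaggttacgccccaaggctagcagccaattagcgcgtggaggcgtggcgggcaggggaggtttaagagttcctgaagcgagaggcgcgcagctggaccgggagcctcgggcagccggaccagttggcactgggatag

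The core TGGGAA was found in 25.6% of 32851 windows of the same length, and its longer form GTGGGAA in 6.38%. Among the 9 member windows, the core occurred in those of Lfng, with starts of the match at -135 and -108 relative to the start site, and Dtx2, at -23. The match of Lfng at -108 was part of the longer form and shared its first 2 letters with a CACGTG, an E-box of the kind bound by Hes and Hey repressors. CACGTG stood at -108 in the Nrarp window as well, and 7.15% of all windows held it. The N-box CACNAG, another Hes motif, was present in 42.5% of all windows on either strand, and among members in those of Nrarp, Dtx1, Dtx2, Lfng and Rfng and in 1 of the 3 windows of Numb. These matches describe letters and are not binding sites, and the absence of a match says nothing of sequence outside the window.

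DBZ lowered 3 of the 10 genes and raised 0 of them by the test over all genes (limma on log2(intensity + 16), Benjamini-Hochberg adjusted p under 0.05). Over all genes, 1.52% were called lower and 3.82% higher, and 5.34% were called in either direction. The 3 were Nrarp, Dtx1 and Rfng, while at an unadjusted p under 0.05 the same count of 3 was reached, against 26.3% of all genes. The DBZ arrays lay wholly below the vehicle arrays for 4 genes, these 3 and Dtx4, and wholly above them for 0, where 15.8% and 17.3% of all genes did so, or 33.2% in either direction. The median log2 difference over the 10 genes was -0.13, beside -0.017 over all genes. The members were picked with earlier results of these arrays known.

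**Figure D1:**
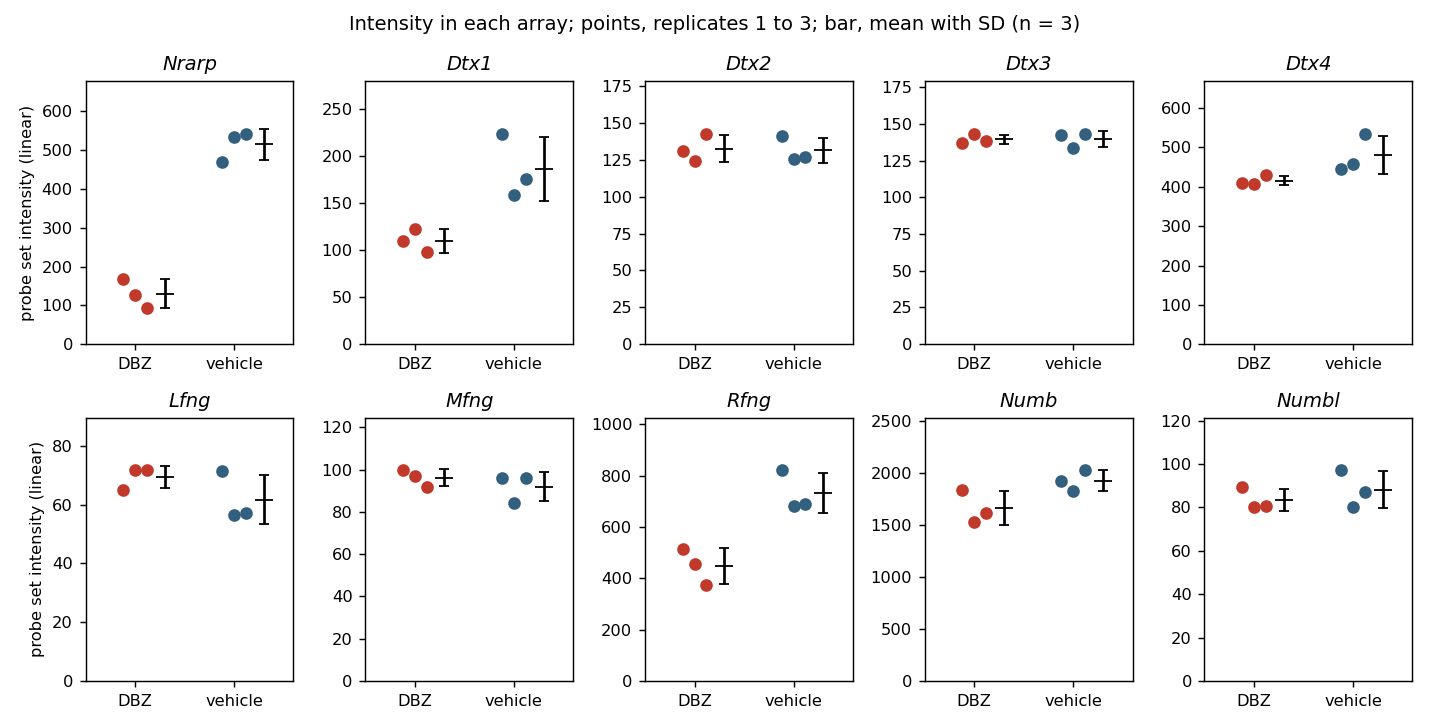
Intensity of the representing probe set of each of the 10 genes (linear, arbitrary units, axes from 0) in the 3 DBZ arrays and the 3 vehicle arrays, with the mean and SD of each group (n = 3) beside the points. Nrarp, Dtx1, Dtx4 and Rfng have all DBZ points below all vehicle points, and the groups overlap for the other genes.

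Nrarp showed the largest difference of the 10. Its intensity was 168, 127 and 93.9 in DBZ replicates 1, 2 and 3, against 468, 533 and 542 in vehicle replicates 1, 2 and 3. Every DBZ array was thus below every vehicle array, and the lowest vehicle value was more than double the highest DBZ value. The group means were 130 ± 37.4 in DBZ and 514 ± 40.1 in vehicle arrays (SD, n = 3), so that the DBZ mean was 25.2% of the vehicle mean. The log2 difference was -1.89 ± 0.19 (SE) and the 95% interval -2.35 to -1.44 (limma, Benjamini-Hochberg adjusted p = 0.016). Among 18193 genes it ranked 28 from the largest fall and 51 from the smallest p.

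Relative to its mean, Nrarp varied more in the DBZ arrays, at a coefficient of variation of 28.8%, than in the vehicle arrays, at 7.80%. The SDs themselves were close, at 37.4 in DBZ and 40.1 in vehicle arrays. A second probe set of Nrarp, dimmer than the first, had 91.5, 86.5 and 73.4 in DBZ and 145, 151 and 181 in vehicle arrays. It differed by -0.81 ± 0.11 (SE) with groups apart, and it passed the test over all probe sets too (limma, adjusted p = 0.032). Both probe sets of Nrarp therefore fell, by unequal amounts. The call for the first ended when vehicle replicate 1, 2 or 3 was left out, with differences of -1.96, -1.87 and -1.85 (limma, adjusted p = 0.066, 0.078 and 0.076). In those fits 49, 19 and 38 genes of 18193 were called at all.

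Of the 4 Deltex genes, 1 was called lower, where 1.52% of all genes were. Dtx1, which encodes the mammalian Deltex protein named first, had 109, 123 and 97.6 in the DBZ arrays, against 224, 158 and 176 in the vehicle arrays. The groups did not overlap, and vehicle replicate 1 was the highest of the 6. The means were 110 ± 12.5 in DBZ and 186 ± 34.0 in vehicle arrays (SD, n = 3). The log2 difference was -0.67 ± 0.14 (SE) and the 95% interval -1.01 to -0.34 (limma, Benjamini-Hochberg adjusted p = 0.049).

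This call lay at the threshold and ended whichever array was left out. The differences were -0.67, -0.75 and -0.60 without DBZ replicate 1, 2 and 3 and -0.54, -0.77 and -0.70 without vehicle replicate 1, 2 and 3 (limma, adjusted p from 0.062 to 0.13). Tested among all probe sets rather than genes, the same probe set of Dtx1 had an adjusted p = 0.058 (limma). Its other probe set was dim, at 23.5, 26.2 and 23.8 in DBZ and 26.2, 26.6 and 27.6 in vehicle arrays, with a difference of -0.079 ± 0.053 (SE; limma, adjusted p = 0.42).

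Dtx4, a close relative of Dtx1, had 411, 408 and 429 in the DBZ arrays and 445, 459 and 535 in the vehicle arrays. The groups were apart by a narrow margin, with vehicle replicate 3 standing above the other two vehicle arrays. The log2 difference of -0.20 ± 0.08 (SE) did not pass (limma, Benjamini-Hochberg adjusted p = 0.20), and its 95% interval ran from -0.40 to 0.0062. The second probe set of Dtx4, at 41.1 to 62.6 in DBZ and 59.2 to 67.0 in vehicle arrays, stood at -0.21 ± 0.12 (SE) with groups that overlapped.

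Dtx2 had 131, 124 and 143 in the DBZ arrays and 141, 126 and 127 in the vehicle arrays, through a probe set of a type that can pick up related transcripts. Dtx3, which encodes a Deltex protein with a shorter N-terminal part, had 137, 143 and 138 in DBZ and 143, 133 and 143 in vehicle arrays. Both genes had overlapping groups, with log2 differences of 0.012 ± 0.075 and -0.0019 ± 0.058 (SE), neither of them past the test (limma, Benjamini-Hochberg adjusted p = 0.94 and 0.99). The sign of both turned under some settings. The 95% intervals were -0.17 to 0.20 for Dtx2 and -0.14 to 0.14 for Dtx3. The other probe set of Dtx2 was at 0.072 ± 0.058 (SE), and Dtx3 varied least of the 10 genes within both groups, by 2.27% in DBZ and 4.01% in vehicle arrays.

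Of the 3 Fringe genes, 1 was called lower, against the same 1.52% of all genes. Rfng, the gene of radical fringe, had 513, 455 and 375 in the DBZ arrays, against 821, 682 and 690 in the vehicle arrays. The groups were apart, and vehicle replicate 1 was again the highest array. The means were 448 ± 69.3 in DBZ and 731 ± 78.0 in vehicle arrays (SD, n = 3), with a log2 difference of -0.69 ± 0.13 (SE) and the 95% interval -1.01 to -0.37 (limma, Benjamini-Hochberg adjusted p = 0.045).

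The second probe set of Rfng had 69.0, 65.0 and 67.9 in DBZ and 72.5, 87.9 and 88.1 in vehicle arrays, also with groups apart. Its difference was -0.24 ± 0.08 (SE) and did not pass among all probe sets (limma, Benjamini-Hochberg adjusted p = 0.14), where the brighter one had an adjusted p = 0.053. The call of Rfng over genes held without DBZ replicate 1, at -0.79 (limma, adjusted p = 0.023). It ended without DBZ replicate 2 or 3, at -0.71 and -0.58, and without vehicle replicate 1, 2 or 3, at -0.61, -0.74 and -0.73 (limma, adjusted p from 0.070 to 0.12).

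Lfng, the gene of lunatic fringe, had 65.0, 71.6 and 71.6 in the DBZ arrays and 71.5, 56.5 and 57.1 in the vehicle arrays. Its groups overlapped through vehicle replicate 1. The log2 difference was 0.14 ± 0.09 (SE; limma, Benjamini-Hochberg adjusted p = 0.38) with a 95% interval of -0.08 to 0.36. Its other probe set, at 11.7 to 15.3 in DBZ and 14.2 to 15.7 in vehicle arrays, stood at -0.053 ± 0.065 (SE). Mfng, the gene of manic fringe, had 99.7, 97.0 and 92.0 in DBZ and 96.0, 84.1 and 96.0 in vehicle arrays. These overlapped too, at 0.057 ± 0.071 (SE) with an interval of -0.11 to 0.23 and a sign that turned with quantile normalization to -0.012.

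Neither Numb gene passed. Numb had 1839, 1531 and 1612 in the DBZ arrays and 1923, 1823 and 2024 in the vehicle arrays. The groups overlapped only because DBZ replicate 1 exceeded vehicle replicate 2. The log2 difference was -0.21 ± 0.09 (SE) and the 95% interval -0.43 to 7.9e-05 (limma, Benjamini-Hochberg adjusted p = 0.19). A dimmer probe set of Numb had 119, 96.8 and 106 in DBZ and 65.1, 116 and 120 in vehicle arrays, and stood at 0.12 ± 0.21 (SE), with vehicle replicate 1 far below the rest.

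Numbl, the Numb-like gene, had 89.4, 80.4 and 80.4 in the DBZ arrays and 97.1, 80.3 and 87.0 in the vehicle arrays. The ranges overlapped, with a log2 difference of -0.065 ± 0.082 (SE) and the 95% interval -0.26 to 0.13 (limma, Benjamini-Hochberg adjusted p = 0.66).

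Across the 7 genes with 2 probe sets, both had the same sign in 5 and opposite signs in Lfng and Numb. Of the 17 probe sets, 2 passed the test over all probe sets, both of Nrarp, where 0.747% of all probe sets were called lower and 2.12% higher, or 2.87% in either direction. The brighter probe sets of Dtx1 and Rfng lay just above the threshold there. For Dtx1 and Rfng, the dimmer probe set showed a smaller difference than the brighter one. The scale understates the change of dim probe sets. Plain mean intensities of the dimmer ones are therefore given too, and do not settle this. They were 24.5 in DBZ and 26.8 in vehicle arrays for Dtx1, where the brighter one had 110 and 186. For Rfng they were 67.3 and 82.8, where the brighter one had 448 and 731. The cause of the unequal differences was not tested.

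**Figure D2:**
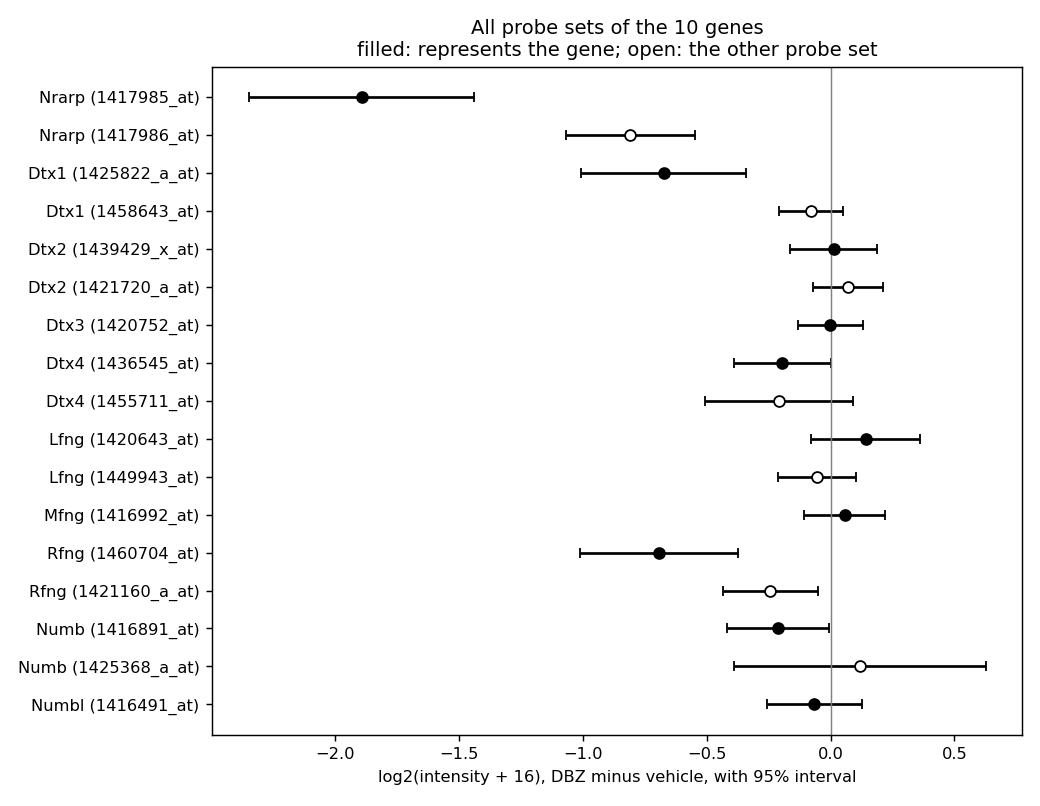
Log2 difference, DBZ minus vehicle, of log2(intensity + 16) for all 17 probe sets of the 10 genes with 95% intervals from the fit over all probe sets. Both probe sets of Nrarp lie left of 0, at -1.89 and -0.81, while those of Dtx2, Dtx3, Mfng and Numbl have intervals across 0.

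Differences in response between relatives were tested directly, as the change of 1 gene minus that of the other within each array, over 10 pairs. An exact two-sided permutation test with 3 arrays a group cannot go below p = 0.1, so no pair could pass. The change of Lfng exceeded that of Rfng by 0.83 ± 0.16 and the change of Mfng exceeded it by 0.75 ± 0.12 on the log2 scale (SE, n = 3), with groups apart (exact p = 0.1 each, adjusted over the pairs 0.17). Lfng and Mfng differed by 0.084 ± 0.098, with a 95% interval of -0.19 to 0.36.

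Among the Deltex genes, the change of Dtx1 was more negative than that of Dtx2, Dtx3 and Dtx4, by -0.69 ± 0.16, -0.67 ± 0.14 and -0.48 ± 0.21 (SE, n = 3; exact p = 0.1 each, adjusted 0.17). The interval of the last, -1.06 to 0.10, included 0. Dtx2 and Dtx3 differed by 0.014 ± 0.076 in their change, and Dtx4 lay 0.21 ± 0.12 below Dtx2 and 0.19 ± 0.08 below Dtx3. Numb and Numbl differed by -0.15 ± 0.07, with an interval of -0.35 to 0.056 (exact p = 0.2, adjusted 0.25).

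**Figure D3:**
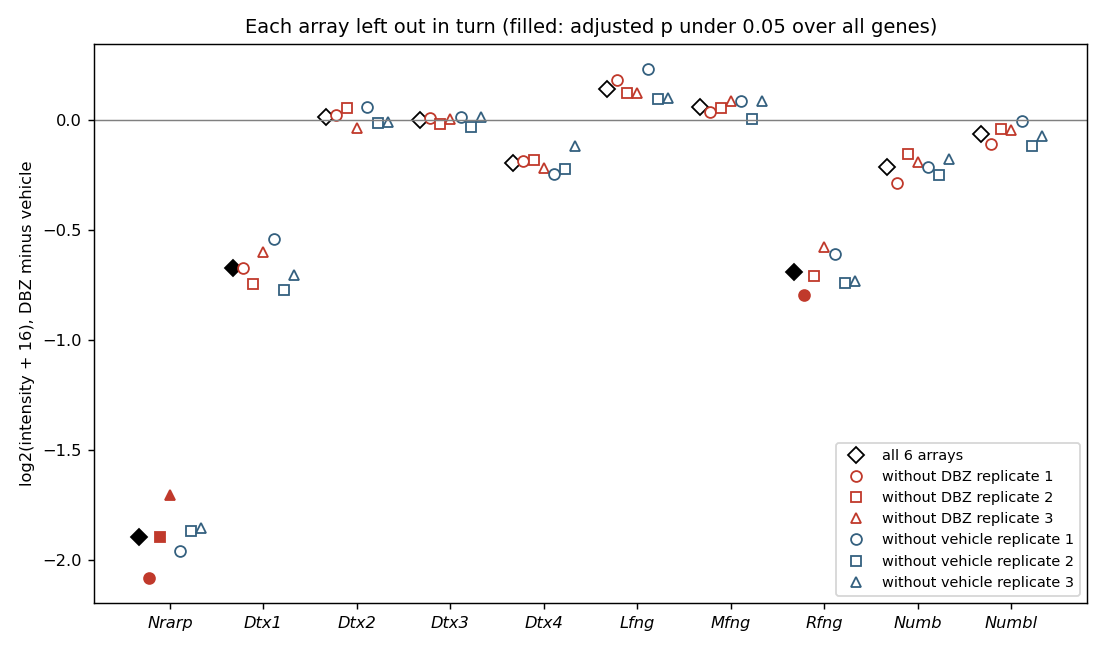
Log2 difference, DBZ minus vehicle, of each gene with all 6 arrays and with each array left out, where filled symbols have an adjusted p under 0.05 over all genes (limma). Nrarp stays between -2.08 and -1.71, Dtx1 between -0.77 and -0.54 and Rfng between -0.79 and -0.58, while most of these values are open symbols.

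Genes with the profile over the 6 arrays most like that of a called member were found by the root mean square distance between centred log2 profiles. For Nrarp these were Kcnq1ot1, a long non-coding RNA, at a distance of 0.11 log2 units, Ugt2b36, a glucuronosyltransferase gene, at 0.19, and Clic6, of the chloride intracellular channel family, at 0.19. Their log2 differences were -2.06, -1.97 and -1.92. For Dtx1 they were 2610316D01Rik, Smim4 and Saxo2, at distances of 0.074, 0.078 and 0.083. For Rfng they were Phldb1, Pkig, a gene of a protein kinase A inhibitor, and Rad54l, of homologous recombination, at 0.042, 0.046 and 0.058. These distances are descriptions over 6 arrays that share the group difference.

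Of 65 other genes of the pathway, 61 were measured, and 2 of them rose and 3 fell, where 3.82% and 1.52% of all genes did so. Their median difference was -0.016, beside -0.017 over all genes. Dll1 and Dll4, which encode ligands, rose by 1.33 ± 0.22 and 1.13 ± 0.12 on the log2 scale (SE; limma, Benjamini-Hochberg adjusted p = 0.034 and 0.019). The receptor gene Notch1 and the target gene Hes1 fell, with differences of -0.63 ± 0.13 and -0.82 ± 0.15 (SE; limma, adjusted p = 0.0495 and 0.039). Cbl, a ubiquitin ligase gene, had 374, 358 and 391 in the DBZ arrays, against 501, 518 and 562 in the vehicle arrays. It fell as well, with a difference of -0.48 ± 0.07 (SE; limma, adjusted p = 0.028) and groups apart. The other 2 probe sets of Cbl stood at -0.19 ± 0.15 and -0.079 ± 0.081 (SE) with groups that overlapped, and as the mean of its probe sets Cbl was at -0.25 and did not pass (limma, adjusted p = 0.086). By list, 2 of 5 ligand genes rose, and 1 of 4 receptor genes and 1 of 7 Hes and Hey genes fell. DBZ arrays lay wholly above the vehicle arrays for 1 receptor gene, Notch4, and wholly below for 1. They lay above for 2 Hes and Hey genes, Hes6 and Hey2, and below for 2. For the 5 ligand genes they lay above for 3 and below for 1. Over the 61 pathway genes they lay above for 13 and below for 10, where 17.3% and 15.8% of all genes did so. Notch4, at 0.66 ± 0.17, and Hes6, at 0.44 ± 0.14, did not pass (SE; limma, adjusted p = 0.072 and 0.12).

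These 5 calls ended without vehicle replicate 1, 2 or 3. The differences ranged over those 3 fits from 1.30 to 1.36 for Dll1, 1.05 to 1.20 for Dll4, -0.70 to -0.56 for Notch1, -0.93 to -0.75 for Hes1 and -0.51 to -0.43 for Cbl. Without DBZ replicate 2 those of Dll1, Notch1 and Cbl ended, at 1.24, -0.51 and -0.45, and without DBZ replicate 3 those of Notch1, Hes1 and Cbl, at -0.70, -0.79 and -0.51. Those of all 5 genes held without DBZ replicate 1. With a pseudocount of 64 those of Dll1, Hes1 and Notch1 ended (limma, adjusted p = 0.058, 0.060 and 0.070), and that of Notch1 also ended without _x_at and _s_at probe sets (limma, adjusted p = 0.051).

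Of 7 other enzymes of the sugar chains on EGF repeats, 0 passed limma's test and 1 had an unadjusted p under 0.05, with a median of 0.081. Over all genes 26.3% had an unadjusted p under 0.05, a share that applies to each list in this paragraph. Pofut1, which adds the fucose that Fringe extends, had a mean of 239 ± 8.61 in DBZ and 258 ± 19.9 in vehicle arrays (SD, n = 3), and Gxylt2, with the smallest p of the list, was at 0.21 ± 0.08 (SE; limma, Benjamini-Hochberg adjusted p = 0.15). Of 9 endocytic partners of Numb, 0 passed and 2 had an unadjusted p under 0.05, with a median of -0.014. Ap2b1, a subunit of the AP-2 adaptor, had the smallest p, at 0.20 ± 0.06 (SE; limma, adjusted p = 0.090). It was at 0.082 as the mean of its probe sets and passed with array weights (limma, adjusted p = 0.044). Rbpj, the DNA-binding partner of Notch and a contact of Nrarp, stood at 0.085 ± 0.067, and 0 of 8 genes of the nuclear complex passed and 1 had an unadjusted p under 0.05, Ep300, at -0.29 ± 0.09 (SE; limma, adjusted p = 0.12).

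Among 13 ubiquitin ligases of Notch or its ligands and their partners, Cbl was the 1 that passed, and the list median was -0.17. An unadjusted p under 0.05 was reached by 6 of the 13, against 26.3% of all genes. The list split both ways. DBZ arrays lay wholly above the vehicle arrays for 4, Nedd4, Nedd4l, Fbxw7 and Neurl1a, at 0.51, 0.45, 0.36 and 0.37. They lay wholly below for 2, Cbl and Itch, where 17.3% and 15.8% of all genes lay above and below. Itch, a ligase that binds both Notch and Deltex, had means of 948 ± 77.6 in DBZ and 1078 ± 50.9 in vehicle arrays (SD, n = 3), at -0.19 ± 0.08 (SE; limma, Benjamini-Hochberg adjusted p = 0.21). None of 8 genes of receptor cleavage passed, with 2 at an unadjusted p under 0.05, and Furin, a protease of the secretory pathway, had the smallest p at -0.38 ± 0.08 (SE; limma, adjusted p = 0.054). It passed with array medians centred, with array weights and without DBZ replicate 1, at -0.42, -0.39 and -0.44.

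**Figure D4:**
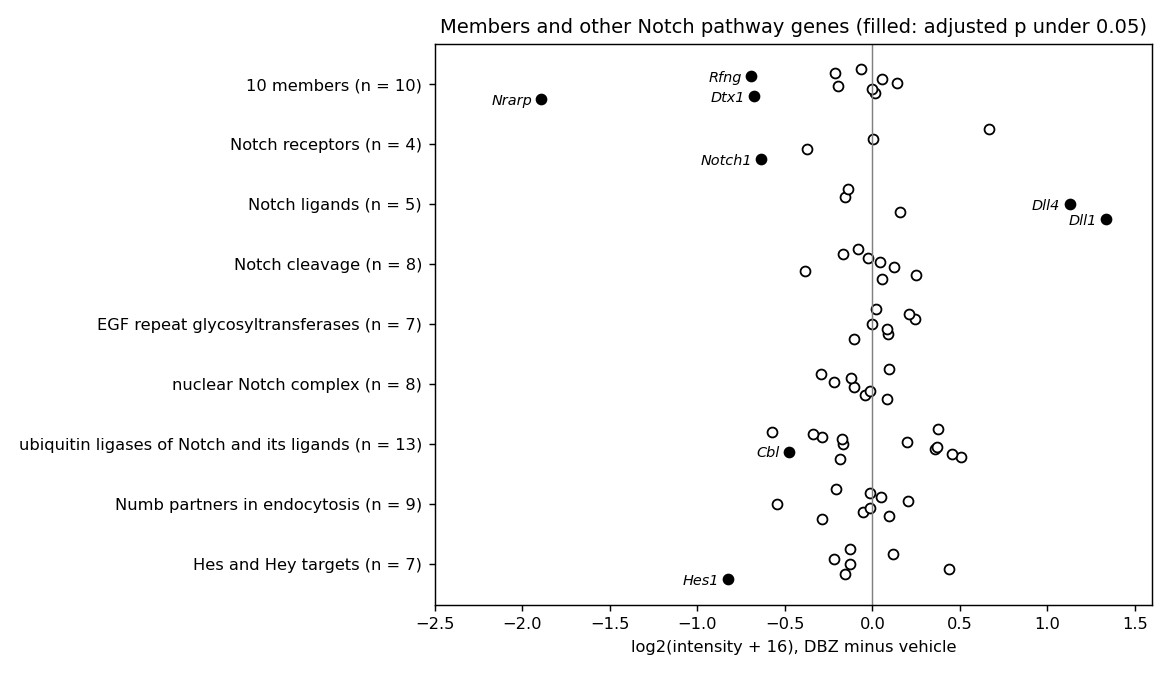
Log2 difference, DBZ minus vehicle, of log2(intensity + 16) for the 10 genes and for 61 other Notch pathway genes in 8 lists, 1 point a gene, filled and named where the adjusted p was under 0.05. The filled points are Nrarp, Dtx1, Rfng, Notch1, Cbl and Hes1 left of 0 and Dll1 and Dll4 right of it.

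Each array measured all sorted cells together, so fewer cells of a type and less RNA per cell cannot be told apart in any of these values. Lgr5 was at 230 in DBZ and 245 in vehicle arrays on average, and summed intensities of 7 epithelial markers, Epcam and Cdh1 among them, overlapped at 90029 to 96406 in DBZ and 87997 to 98179 in vehicle arrays. The sum of 4 crypt base stem cell markers was 804 to 1109 in DBZ and 4443 to 6234 in vehicle arrays, with 2 of 4 called lower, Ascl2 and Olfm4. Olfm4 carried that drop, at 28.1 in DBZ and 4346 in vehicle arrays on average, and without it the sums overlapped, at 774 to 1073 in DBZ and 816 to 1057 in vehicle arrays. That sum is mostly Smoc2, at 606 in DBZ and 541 in vehicle arrays, and Lgr5, and does not show the fall of Ascl2. Ascl2 was at 79.5 in DBZ and 179 in vehicle arrays, a difference of -1.03 ± 0.13 with groups apart (SE; limma, Benjamini-Hochberg adjusted p = 0.025). Sums were higher in DBZ arrays, without overlap, for goblet markers such as Atoh1 and Spdef (78869 to 100290 against 58453 to 65667, 3 of 6 called higher) and enteroendocrine markers such as Chga and Chgb (3278 to 7821 against 1728 to 2179, 1 of 4).

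The same held for markers of fibroblasts and smooth muscle such as Col1a1 and Col1a2 (34202 to 39985 against 16086 to 22992, 5 of 9 called higher), endothelium such as Pecam1 and Cdh5 (549 to 664 against 400 to 474, 1 of 5) and adipocytes, Adipoq and Fabp4 (4251 to 10133 against 1206 to 2630, 1 of 2). It held also for those of tuft cells such as Dclk1 and Trpm5 (346 to 772 against 265 to 337, 0 of 3) and mesothelium such as Msln and Upk3b (109 to 479 against 69.3 to 74.9, 0 of 4). Such sums are led by their brightest genes, which for goblet cells are Tff3, Muc2, Agr2 and Clca1. Taken singly, Muc2, Col1a1, Dclk1 and Lrrn4 of these lists had groups that overlapped. Sums overlapped for 7 immune markers, Ptprc and Cd3e among them, at 4831 to 9782 in DBZ and 4694 to 5702 in vehicle arrays, with 1 of 7 called higher, S100a8, a neutrophil gene, at 4.97 (limma, Benjamini-Hochberg adjusted p = 0.029). Sums overlapped for 3 Paneth markers too, at 27360 to 48889 in DBZ and 46491 to 55273 in vehicle arrays, while the 3 genes went opposite ways with groups apart. Mmp7 was called higher at 1.37 (limma, adjusted p = 0.034), and Lyz1 and Ang4 stood at -0.30 and -2.70 without passing. No marker was at 0 on any array. The actin control's 3' to 5' ratio, which reads RNA integrity, was 1.51 to 1.57 in DBZ and 1.61 to 2.22 in vehicle arrays, with vehicle replicate 1 the highest. That of the Gapdh control overlapped, at 1.05 to 1.09 in DBZ and 1.07 to 1.42 in vehicle arrays. The part of these cells and of RNA quality in the falls of Nrarp, Dtx1 and Rfng was not tested. Without vehicle replicate 1 their differences were -1.96, -0.54 and -0.61.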

How the data were processed

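Total RNA of sorted cells was amplified and labelled with biotin by a 3' IVT kit, per the labels' protocols. The authors deposited 1 intensity per probe set and array on a linear scale, and how they summarised, background-corrected and normalized it is not given in the sources used here. Of 45101 probe sets, 34945 had a single symbol and were no array control, 932 had several symbols and 9160 had none. Entrez identifiers of 34741 were found in the RefSeq table, which changed 0 symbols. The deposited intensities were tested as log2(intensity + 16), without further normalization, since array medians differed by 0.050 on that scale, under a limit of 0.1. The medians of 44.9 to 46.3 given above are over all 45101 probe sets and are not the source of the 0.050. The 2 groups were compared in limma 3.58.1 under R 4.3.3 (lmFit, eBayes, two-sided, DBZ minus vehicle), with Benjamini-Hochberg adjustment over 18193 genes and calls under 0.05. SEs and 95% intervals of genes and probe sets are moderated, and those of the 10 pairs are ordinary ones from the 6 arrays. The prior had 2.21 degrees of freedom.

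The 10 members and all lists were chosen with earlier results of these data known. The genes named are all members, pathway genes past the threshold or, in a list without any, that with the smallest p, the first 2 measured markers of each list, and the 3 nearest profiles of Nrarp, Dtx1 and Rfng. Further genes, among them Pofut1, Rbpj, Itch, Dtx3l, Parp9 and Ap2a2, were named for their roles or values after these had been seen. Of the listed genes, 4 of the pathway and 3 markers were not analysed here. The test was tested on simulated data. The alternatives were other scalings, pseudocounts, filters, probe set rules, variance models, array weights, a block for the replicate number and leaving out each array.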

Additional observations from a re-analysis of the deposited data

How the results depend on the processing

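The falls of Nrarp, Dtx1 and Rfng kept their direction under all 18 alternatives, and Nrarp passed the threshold in 15, Rfng in 12 and Dtx1 in 7 of them. The number of members called lower was 3 and became 1 with a pseudocount of 64, and 0 to 2 when an array was left out. The number called higher was 0 throughout. Over all genes 972 were called, of which 695 were higher and 277 lower. These counts were 440, 310 and 130 with a pseudocount of 64 and 2690, 1660 and 1030 with array weights. With an array left out they ranged from 19 to 2032, from 16 to 1305 and from 3 to 727. The share of higher calls was 71.5%, against 60.3% with quantile normalization (584 higher, 384 lower) and 57.9% with centred medians (536 and 390). The 5 calls among other pathway genes, 2 higher and 3 lower, became 2, 1 and 1 with a pseudocount of 64 and 10, 5 and 5 with array weights. With an array left out they ranged from 0 to 8, from 0 to 3 and from 0 to 5. The cause of these moves was not tested.

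Dtx1 lost its call with quantile normalization (-0.75; limma, adjusted p = 0.055), with a pseudocount of 64 (-0.52; 0.074), with the mean of its probe sets (-0.38; 0.057), without _x_at and _s_at probe sets (-0.67; 0.0502) and with the replicate block (-0.67; 0.069). Rfng lost it with a pseudocount of 64 (-0.64; 0.063), and Notch1 with the replicate block (-0.63; 0.058). Values near 0 changed sign. Dtx2 was at -0.063 with quantile normalization, -0.028 with centred medians and -0.036 to 0.059 with an array left out, and Dtx3 at 0.0010 with array weights and -0.032 to 0.015 with an array left out. Mfng was at -0.012 with quantile normalization, and the difference in change of Dtx2 and Dtx3 ranged from -0.040 to 0.071 with an array left out, below 0 without DBZ replicate 3 or vehicle replicate 3. Lfng, Mfng and Numbl were removed by the filters on dim genes and had no value there.

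The replicate numbers were not taken as pairs, since the labels name 2 groups of mice and no batch. Deviations of arrays of the same number correlated at -0.0086, 0.25 and 0.20 over genes, which does not settle whether the numbers mark pairs. With the replicate block 889 genes and 2 members were called. Of 3 DBZ arrays, 2 correlated best with the vehicle array of their own number, and so did 2 of 3 vehicle arrays with the DBZ array of theirs. Lfng, Mfng and Numbl lay below the median gene in mean level, and the log2(intensity + 16) scale understates changes of such genes most.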

Other observations

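The 3 DBZ arrays stood in the same order for Dtx3l, a Deltex relative outside the 4 numbered genes, and Parp9, its binding partner. Dtx3l had 956, 512 and 1085 in DBZ replicates 1, 2 and 3 and 1025, 850 and 1121 in vehicle replicates 1, 2 and 3. Parp9 had 1383, 806 and 1527 in DBZ and 1415, 1400 and 1758 in vehicle arrays. DBZ replicate 2 was the lowest of the 6 arrays for both genes. It was also the lowest for Notch2, at 110, and Ptprc, at 575, so this is not particular to the pair. Neither passed, at -0.29 ± 0.28 and -0.34 ± 0.25 (SE, n = 3; limma, Benjamini-Hochberg adjusted p = 0.57 and 0.44).

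Ap2a2, a subunit of the AP-2 adaptor that Numb binds, had 903, 727 and 534 in DBZ and 1012, 1067 and 1028 in vehicle arrays, with groups apart and a difference of -0.54 ± 0.18 (SE; limma, adjusted p = 0.13). Ap2b1 of the same adaptor stood at 0.20 ± 0.06, also with groups apart, and neither passed the test.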
